A study of Homo sapiens with 3 samples.

Results

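Neurofilament light (NEFL) and 9 other genes that are best known from neurons were examined in RNA-sequencing libraries of A549 cells, an established human lung adenocarcinoma line. The 10 genes were taken by name from the count tables, where they are 10 of 58735 genes: the filament subunit genes NEFL, NEFM, NEFH, INA and PRPH, the genes CEND1, TUBB3 and STMN2 of neuronal differentiation and microtubules, the ubiquitin hydrolase gene UCHL1, and REST, a repressor of neuronal genes. The set was put together with results of these libraries known, and NEFL and CEND1 were chosen by their ratios to the control, so the values below describe the 10 genes and test nothing. The study has 3 libraries, 1 for each condition: A549 cells carrying a control construct (Control-sh) and A549 cells carrying either of 2 short hairpin RNAs against the RNA helicase gene DDX24 (DDX24-sh1 and DDX24-sh2). The constructs were lentiviral (pLKO.1) and puromycin selection gave a stable line of each, grown in F12K medium with 10% serum. The study's methods describe the control as the empty vector, but elsewhere the study calls it a control shRNA, so which of them the control library carries is not known. Each library is 1 stable line, so the hairpin, the state of the line and the culture cannot be told apart. In such bulk RNA, more cells with a transcript and more transcript per cell cannot be told apart either.

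The control library summed to 17218884 counts, and DDX24-sh1 and DDX24-sh2 to 18337471 and 17847190. Mitochondrial genes took 4.36%, 5.13% and 7.04% of these counts, and their part in any result was not tested. Levels are given as CPM, the count relative to the scaled library size, or as TPM, the count per gene length scaled to a fixed total, where genes are compared with each other. Gene lengths take in all annotated exons of a gene and can exceed those of single transcripts, so TPM comparisons between genes depend on them. Ratios are log2 ratios to Control-sh with a prior count of 2, and a range in parentheses after one is the exact 95% interval of the unshrunken ratio of the 2 counts. These intervals cover counting error only, because no condition has a replicate. The sources used here mention no molecular identifiers, so reads need not be independent molecules. DDX24 itself had 2010 counts in the control against 637 and 765 in DDX24-sh1 and DDX24-sh2, which placed it lower in both hairpin libraries (log2 ratios -1.75 and -1.47). The deposited FPKM values carry the 2 hairpin labels the other way round from the counts, and which of them is right is not known. DDX24-sh1 and DDX24-sh2 therefore stand for the libraries whose counts carry those names. Where 3 values follow each other, they are those of Control-sh, DDX24-sh1 and DDX24-sh2 in that order, and where 2 ratios do, those of DDX24-sh1 and DDX24-sh2. Genes averaging 1 CPM or more over the 3 libraries, 13984 in all, are called expressed.

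Neurofilaments are the intermediate filaments of axons. They are built from the light, medium and heavy subunits (NEFL, NEFM, NEFH) together with alpha-internexin (INA) or, in peripheral neurons, peripherin (PRPH). The medium and heavy subunits need a partner such as the light subunit to assemble into filaments in most settings. Outside the nervous system, REST holds many neuronal genes silent by binding a DNA element called RE1 and recruiting corepressors such as RCOR1 and SIN3A. Some carcinoma lines nevertheless transcribe single neuronal genes, UCHL1 being a familiar case in lung cancer.

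The labelled cell type was checked against 12 epithelial markers, of which 9 were expressed. Keratin genes led the list, with KRT8 at 64704, 69499 and 63926 counts, and the list summed to 7851, 7905 and 7887 CPM. GRHL2 was at 0 counts in every library, and ESRP1 and CLDN7 were near it. EPCAM was also low, with 32, 29 and 29 counts. KRT18 and KRT8 overlap on opposite strands by 1084 bases, so reads there can belong to either gene. Of 30 neuronal markers, 16 were expressed, and DCX, GAD2, SLC17A6, STMN2 and STMN4 were among those with 0 counts in every library. The neuron-specific RNA-binding proteins ELAVL2, ELAVL3 and ELAVL4 had at most 2 counts in any library. Of 18 proneural transcription factors, 12 had 0 counts throughout, among them NEUROG1, NEUROG2 and NEUROD1.

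NEFL (ENSG00000277586) is a minus-strand gene at 24950955 to 24957110 of chromosome 8 (GRCh38, as all coordinates here). The control library held 260 NEFL counts, DDX24-sh1 held 1158 and DDX24-sh2 held 1365. After scaling these were 15.2, 63.3 and 75.6 CPM, so both hairpin libraries were high and the control low, with no overlap of the counting intervals. Its log2 ratios were 2.05 (1.86 to 2.25) and 2.30 (2.12 to 2.51), or 4.16 and 4.96 times the control level. DDX24-sh2 was above DDX24-sh1 by 0.26 on the log2 scale (interval 0.14 to 0.37). Of the expressed genes, 4 had a larger ratio than NEFL in both libraries. Among protein-coding genes ranked by TPM, NEFL stood at places 7842, 2932 and 2402 of 19951.

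An antisense transcript, AC107373.2, covers 490 bases of NEFL exon, 11.3% of its exonic length, on the opposite strand. It had 0 counts in all 3 libraries. The microRNA gene MIR6841 lies in an intron of NEFL on the same strand and had 0, 0 and 1 counts. Adding the counts of both left the log2 ratios of NEFL at 2.05 and 2.30. A pseudogene, NEFLP1, whose best match covers 1009 bases at 76.1% identity, had 0 counts as well.

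INA encodes alpha-internexin, the filament subunit that precedes the neurofilament triplet in developing neurons. It lies on the plus strand of chromosome 10, from 103277163 to 103290351, and no annotated gene overlaps it. Its counts were 1786, 2119 and 1525, or 105, 116 and 84.5 CPM. The 2 hairpin libraries lay on either side of the control, with log2 ratios of 0.15 (0.06 to 0.24) and -0.31 (-0.41 to -0.21). Of the 5 neuronal filament genes, INA was the one with both intervals off 0 and on opposite sides of it. DDX24-sh2 minus DDX24-sh1 was -0.45 (interval -0.55 to -0.36). Which hairpin goes with which direction depends on the labels of the counts being the right ones.

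NEFM and NEFH, the medium and heavy subunits, stayed near the floor of detection. NEFM lies on chromosome 8 from 24913012 to 24919098, next to NEFL, and had 9, 19 and 13 counts. The ratios of 0.85 (-0.24 to 2.31) and 0.38 (-0.89 to 1.86) could not be told from 0 at this depth. NEFH, on chromosome 22 from 29480230 to 29491390, had counts of 3, 6 and 14. Relative to the control these are 0.61 (-1.33 to 3.53) and 1.62 (0.30 to 4.58) on the log2 scale, so that only the DDX24-sh2 interval lay off 0. PRPH, on chromosome 12 from 49293252 to 49298686, had 12, 11 and 5 counts, and both of its intervals included 0 (log2 ratios -0.19 and -1.07). Each of these genes has an antisense partner. AF106564.1 shares 38.9% of the exonic length of NEFM and had 2, 2 and 3 counts. AC125611.4 shares 56.2% of that of PRPH and had 3, 1 and 2 counts. AC000035.1 shares 8.80% of that of NEFH and had 0 counts throughout. If strand was not used in counting, reads in the shared stretches can belong to either gene.

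**Figure D1:**
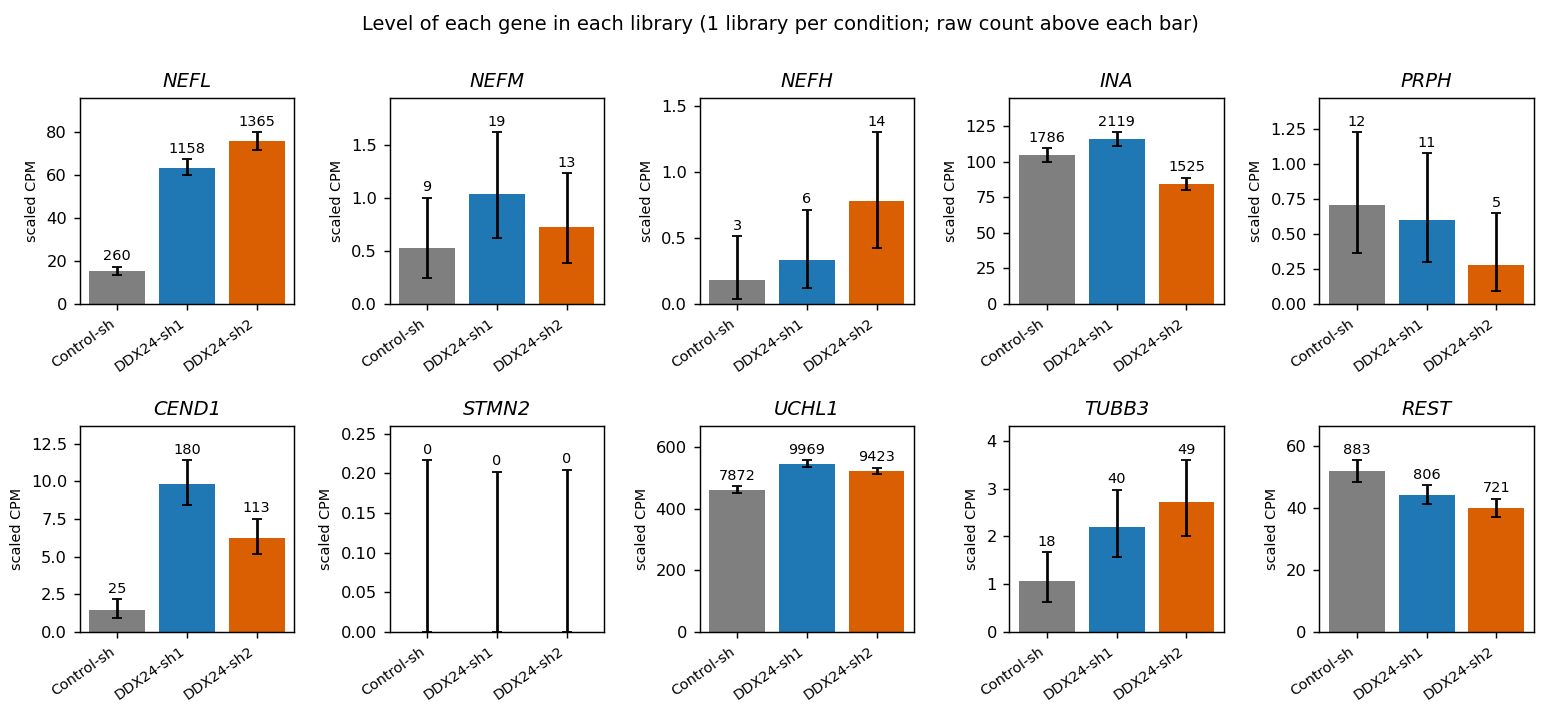
Level of each of the 10 genes in each library. Bars show scaled CPM (linear axis from 0, a separate scale for each gene), error bars the exact 95% Poisson interval of the count, and the number above each bar the raw count. NEFL and CEND1 stand well above the control in both hairpin libraries, INA lies on either side of it, and STMN2 has 0 counts.

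Per gene length, NEFL made up a larger share of the neuronal filament transcripts in both hairpin libraries than in the control. Since NEFL was chosen by its ratio to the control, this share follows in part from that choice and is no separate result. The 5 genes summed to 129, 175 and 145 TPM. INA held 89.4%, 70.4% and 59.4% of that sum. NEFL held 9.71%, 28.7% and 39.7%. NEFM, NEFH and PRPH each stayed at or under 0.47% in every library. The TPM level of NEFL was thus 0.11 times that of INA in the control and 0.41 and 0.67 times that of INA in the hairpin libraries.

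**Figure D2:**
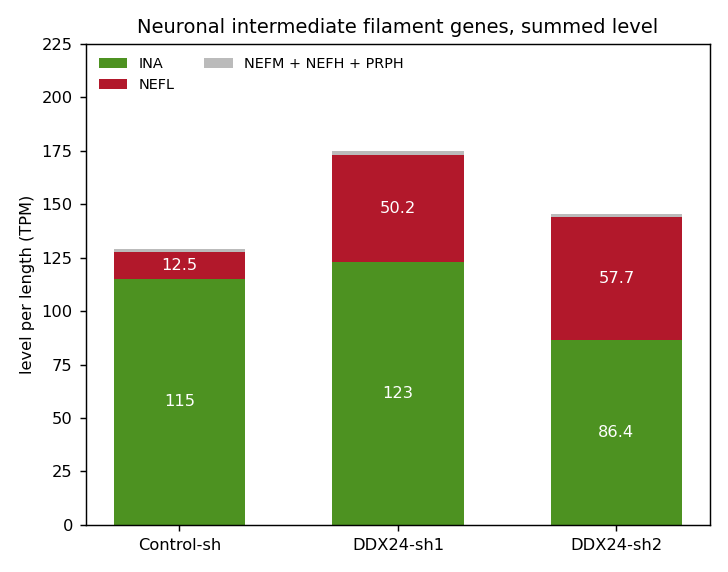
Summed level of the neuronal intermediate filament genes in each library, in TPM (linear axis), with INA in green, NEFL in red and NEFM, NEFH and PRPH together in grey. NEFL goes from 12.5 TPM in Control-sh to 50.2 and 57.7, while INA is 115, 123 and 86.4 TPM.

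Other intermediate filament genes were followed as a list. Of 15 such genes written as a list (the neuronal subunits, VIM, DES, GFAP, NES, SYNM, 2 lens genes and the lamins), 10 were expressed. Of these, 4 were higher and 3 lower than the control in both hairpin libraries, against 34.6% and 40.2% of all expressed genes. Both counting intervals lay above 0 for 2 and below 0 for 2 (14.0% and 20.6% of expressed genes). NEFL was the only one of the 10 that was 2-fold higher in both (1.19% of expressed genes), and it was chosen by that ratio. Keratin genes, which are intermediate filament genes too, were not on this list. Of the keratins among the epithelial markers, KRT19 was 2-fold higher in both, and KRT7, KRT8 and KRT18 were not. The median log2 ratios of the list were 0.10 and 0.07, beside -0.02 and -0.03 over all expressed genes. The most abundant members were LMNA, a nuclear lamina gene (8077, 9643 and 10164 counts, ratios 0.16 and 0.25), VIM, the filament of mesenchymal cells (5368, 5960 and 8222 counts, ratios 0.05 and 0.53), and LMNB2 (4329, 3812 and 4388 counts, ratios -0.28 and -0.06). LMNB2 overlaps TIMM13 on its own strand by 257 bases.

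Genes whose products carry, anchor or degrade neurofilaments made up a list of 15, all expressed. Of these, 7 were higher and 6 lower in both hairpin libraries (34.6% and 40.2% of expressed genes), and the median log2 ratios were 0.08 and 0.00084. Both counting intervals lay above 0 for 3 and below 0 for 4 (14.0% and 20.6% of expressed genes). KIF5A, a neuronal kinesin heavy chain, was 2-fold lower in DDX24-sh2 only (49, 32 and 22 counts, ratios -0.68 and -1.16), as were 3.07% of expressed genes. The most abundant members were the cytolinker PLEC (ratios -0.02 and 0.03), the dynein heavy chain DYNC1H1 (-0.26 and -0.27) and the small heat shock gene HSPB1 (0.22 and 0.00084).

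CEND1 encodes a neuronal membrane protein tied to the exit of neural precursors from the cell cycle. The gene (ENSG00000184524) is a minus-strand gene of chromosome 11 (787104 to 790123), and no annotated gene overlaps it. Its counts were 25, 180 and 113, or 1.46, 9.84 and 6.26 CPM. Both hairpin libraries were high, DDX24-sh1 the higher. The log2 ratios were 2.66 (2.14 to 3.41) and 2.01 (1.46 to 2.78), or 6.72 and 4.27 times the control level. The control count of 25 makes these intervals wide. DDX24-sh2 minus DDX24-sh1 was -0.64 on the log2 scale (interval -1.005 to -0.31), the opposite order from NEFL. The 2 CEND1 pseudogene transcripts found by sequence match, CEND1P1 (89.7% identity over 456 bases) and AL359736.2, had 0 counts.

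The sequence before the transcription start is printed for CEND1, the gene with the largest ratio in DDX24-sh1 among the 10, and for INA and UCHL1, the most abundant of them. The 250 bases come from RefSeq (GRCh38.p14) and read 5′ to 3′ on the strand of the gene, from chr11:790091-790340 (minus strand) for CEND1, chr10:103276888-103277137 (plus) for INA and chr4:41256678-41256927 (plus) for UCHL1. Capitals mark each CCGCCC, the core of a GC box, or its reverse complement GGGCGG.
CEND1: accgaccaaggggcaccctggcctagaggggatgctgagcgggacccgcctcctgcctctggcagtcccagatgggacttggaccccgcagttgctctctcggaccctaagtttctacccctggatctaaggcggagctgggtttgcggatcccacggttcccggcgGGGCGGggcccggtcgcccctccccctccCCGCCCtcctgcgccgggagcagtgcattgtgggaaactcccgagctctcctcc
INA: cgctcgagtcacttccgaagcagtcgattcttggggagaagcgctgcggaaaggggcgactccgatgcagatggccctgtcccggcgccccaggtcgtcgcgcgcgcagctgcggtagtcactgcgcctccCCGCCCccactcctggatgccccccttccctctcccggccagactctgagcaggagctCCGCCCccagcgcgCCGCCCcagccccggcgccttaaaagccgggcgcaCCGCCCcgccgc
UCHL1: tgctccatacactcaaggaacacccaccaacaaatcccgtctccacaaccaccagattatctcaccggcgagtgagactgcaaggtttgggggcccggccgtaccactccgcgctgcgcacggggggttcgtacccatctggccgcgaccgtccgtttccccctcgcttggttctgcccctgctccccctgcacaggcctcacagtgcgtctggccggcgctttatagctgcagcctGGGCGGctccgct
The UCHL1 window lies inside the gene span of the files, whose annotation starts further upstream than RefSeq. The last bases of the CEND1 window also lie inside the gene span of the files, which reaches to 790123. CEND1 has 2 such matches, 83 and 54 bases before the start, INA has 4 and UCHL1 has 1, at 13 bases. The same letters, on either strand, are in 42.6% of 35116 RefSeq windows of this length. G and C make up 68.8%, 72.8% and 64.4% of the 3 windows. RefSeq windows were matched for 6 of the 10 genes, CEND1, INA, PRPH, REST, TUBB3 and UCHL1, 8 windows in all. The GC box letters were found for 5 of these 6, PRPH being the exception, and in 6 of the 8 windows. TATAAA or its reverse complement was found for PRPH and UCHL1, and in 10.7% of all windows. The left part of the RE1 element, TTCAGCACC (in 0.288% of all windows), and its right part (in 0.199%) were searched on either strand, and neither was found in the 8 windows. RE1 elements can lie outside such windows, so this says only that these letters are not in them.

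TUBB3 encodes the beta tubulin of neurons. The gene is on chromosome 16 from 89921392 to 89938761 and had 18, 40 and 49 counts, or 1.05, 2.19 and 2.71 CPM. Its log2 ratios were 0.98 (0.22 to 1.94) and 1.28 (0.56 to 2.23). TUBB3 was therefore higher in both hairpin libraries beyond counting error, and past 2-fold only in DDX24-sh2. The DDX24-sh1 value lies at the threshold: the unshrunken fold was 2.07, and the log2 ratio was 1.03 with a prior count of 0.5 and 1.11 with the counts of overlapping genes added. The TUBB3 transcript is 89.5% identical to that of TUBB6 over 1235 bases and 88.5% identical to that of TUBB4A over 1287, and both of these genes have more counts. Whether reads of other beta tubulins were counted on TUBB3 was not tested. The readthrough gene AC092143.1 shares 35.8% of its exonic length and had 0 counts, and the antisense gene AC092143.2 had 0, 4 and 0.

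Other beta tubulin genes stood on the same side of the control as TUBB3. Of the 7 expressed beta tubulin genes, TUBB3 included, 6 were higher in both hairpin libraries, a direction found for 34.6% of all expressed genes. The 6 had both counting intervals above 0, as did 14.0% of expressed genes, which were not matched to them in counts. The median log2 ratios were 0.49 and 0.68. TUBB was at 12837, 14578 and 17376 counts (ratios 0.08 and 0.36), TUBB4B at 6648, 9224 and 11489 (0.37 and 0.71) and TUBB6 at 1617, 2441 and 2742 (0.49 and 0.68). TUBB6 overlaps AFG3L2 on the opposite strand. TUBB2B was the exception, with ratios of 0.10 and -0.20. Per length, TUBB3 held under 0.1% of beta tubulin transcripts in each library, against 50.3%, 44.9% and 44.4% for TUBB. The length used for TUBB3 was 4430 bases, against 1978 for its longest protein-coding transcript, so its share depends on that choice.

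STMN2, a stathmin that regulates microtubules in growing axons, had 0 counts in each library. With 3 counts as the limit that a count of 0 allows, the limits are 0.176, 0.164 and 0.166 CPM. The wider, 2-sided Poisson intervals drawn in the plot of levels reach 0.216, 0.202 and 0.204 CPM. Of the other stathmins, STMN4 was also at 0. STMN1, the form of dividing cells, had 1752, 1600 and 2150 counts (ratios -0.23 and 0.21). STMN3 had 80, 93 and 129 (ratios 0.11 and 0.60).

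UCHL1, a deubiquitinating enzyme that is abundant in neurons, was the most abundant of the 10 genes in every library. It lies on the plus strand of chromosome 4 from 41256413 to 41268455. Its counts were 7872, 9969 and 9423, or 461, 545 and 522 CPM. Both hairpin libraries were modestly above the control, with log2 ratios of 0.24 (0.20 to 0.28) and 0.18 (0.14 to 0.22). These are 1.18 and 1.13 times the control level. At 719, 820 and 756 TPM, UCHL1 ranked at place 128, 104 and 108 among protein-coding genes. Its head-to-head antisense gene UCHL1-AS1 had 0, 0 and 1 counts.

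REST, the repressor, was the one gene of the 10 whose counting intervals lay below 0 in both hairpin libraries, as did those of 20.6% of expressed genes. It is on the plus strand of chromosome 4 (56907876 to 56966678). Its counts were 883, 806 and 721. After scaling these were 51.7, 44.1 and 39.9 CPM, or 85.2% and 77.2% of the control. The log2 ratios were -0.23 (-0.37 to -0.09) and -0.37 (-0.52 to -0.23). The 2 hairpin libraries did not differ beyond counting error (difference -0.14, interval -0.29 to 0.01). REST shares 23 exonic bases, 0.288% of its exonic length, with NOA1 on the opposite strand (710, 741 and 605 counts), and the antisense transcript AC069307.1 in an intron had 5, 1 and 10.

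**Figure D3:**
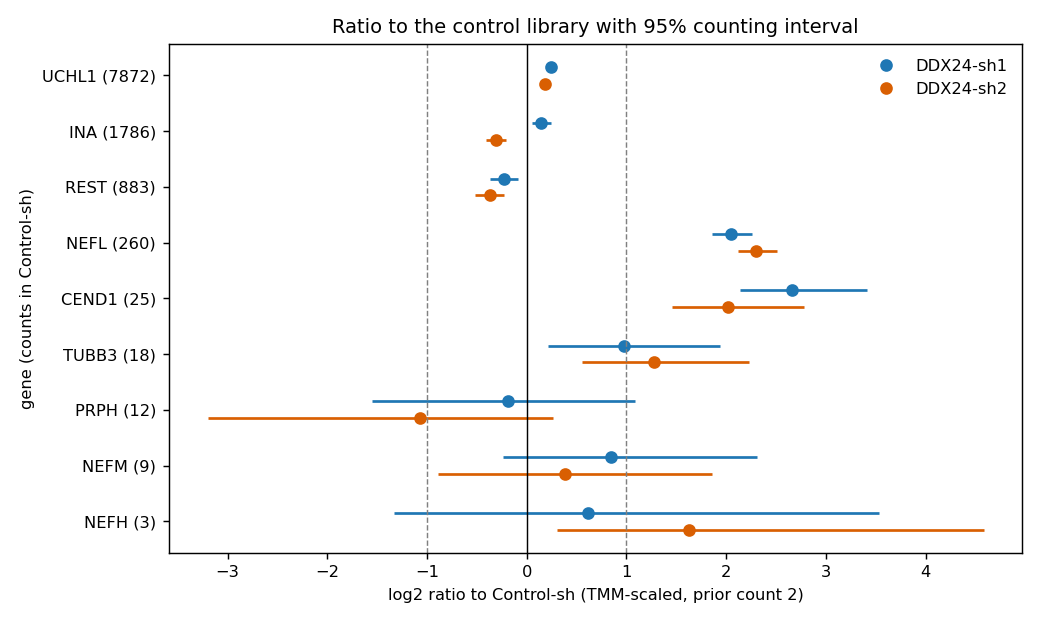
Log2 ratio to Control-sh of the 9 genes with any count, for DDX24-sh1 (blue) and DDX24-sh2 (orange), with the exact 95% counting interval as a line. Genes are ordered by their counts in Control-sh, given in brackets, and dashed lines mark 2-fold. NEFL and CEND1 lie beyond 2-fold in both libraries, and the intervals widen for genes with few counts.

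In all, 6 of the 10 genes were expressed (NEFL, INA, CEND1, UCHL1, TUBB3 and REST), NEFM, NEFH and PRPH were below 1 CPM on average, and STMN2 was at 0. Of the 6, NEFL and CEND1 were at least 2-fold higher in both hairpin libraries, as were 1.19% of all expressed genes. None of the 6 was at least 2-fold lower in both, against 1.38%, and 2.57% of expressed genes were past 2-fold in 1 direction in both. In DDX24-sh1, NEFL and CEND1 were 2-fold higher (2.32% of expressed genes) and none of the 6 was 2-fold lower (2.27%). In DDX24-sh2, NEFL, CEND1 and TUBB3 were 2-fold higher (2.89%) and none was 2-fold lower (3.07%). Since NEFL and CEND1 were chosen by these ratios, nothing is read from the counts. NEFL, INA, CEND1 and UCHL1 differed between the 2 hairpin libraries beyond counting error, as did 44.7% of expressed genes.

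By TPM, the order was UCHL1, INA, REST, NEFL, CEND1, TUBB3, PRPH, NEFM and NEFH in the control. From TUBB3 to NEFH each neighbour lay within the counting error of the next. In DDX24-sh1 the order was UCHL1, INA, NEFL, CEND1, REST, TUBB3, NEFM, PRPH and NEFH. There CEND1 (20.5 TPM) and REST (18.9 TPM) overlapped in counting error, as did each pair of neighbours from TUBB3 onward. In DDX24-sh2 NEFL was followed by REST (16.5 TPM), CEND1 (12.5 TPM) and TUBB3, whose intervals did not overlap, and then by NEFH, NEFM and PRPH, whose intervals did.

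**Figure D4:**
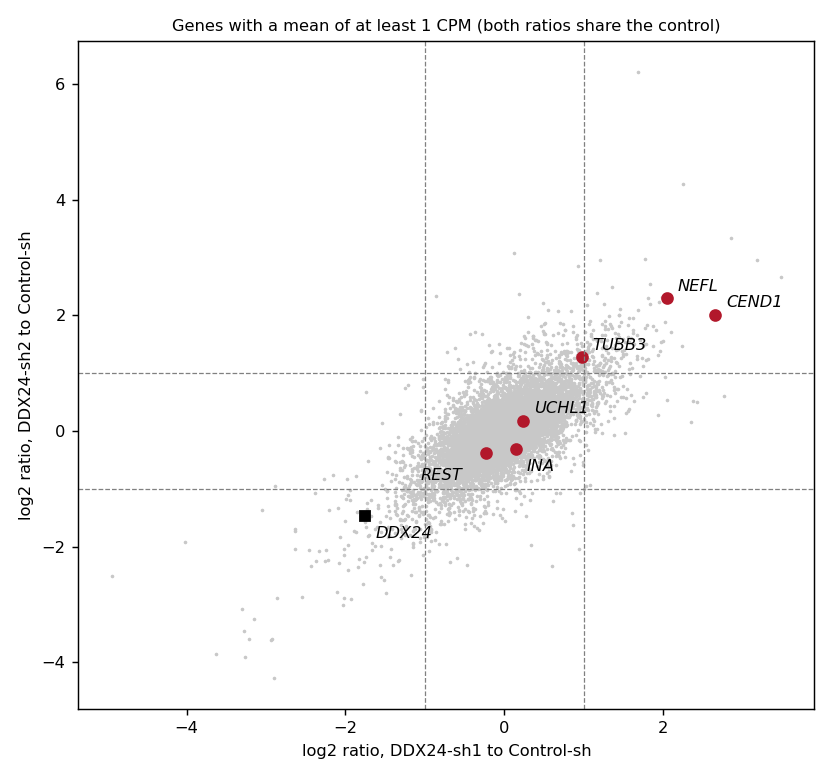
Log2 ratio to Control-sh in DDX24-sh1 (x axis) and DDX24-sh2 (y axis) for the 13984 expressed genes (grey), with 6 of the 10 genes in red and DDX24 as a black square and dashed lines at 2-fold. Both axes share the control library, so the 2 ratios of a gene are not independent. NEFL and CEND1 lie at the upper right edge, while UCHL1, INA and REST lie inside the cloud.

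The genes whose pair of log2 ratios lay nearest to that of NEFL were sought among 11102 genes averaging 5 CPM or more, as the distance over the 2 ratios from 3 libraries. They were HSPA1A (distance 0.12), HSPA1B (0.42), NAP1L2 (0.55), NOV (0.59) and CPA4 (0.67). NAP1L2, a histone chaperone gene known from neurons, had 37, 126 and 158 counts. At 2.17 and 3.63 CPM in the control, NAP1L2 and NOV reached a mean of 5 CPM only through the hairpin libraries, in which they were high. HSPA1A and HSPA1B are near-identical heat shock genes, so their separate counts are uncertain. Nearest to CEND1 were NEFL (0.68), HSPA1A (0.74), NOV (0.91), TMEM158 (0.93) and HSPA1B (0.98). Few genes lie that far from 0, so these distances are large. Nearest to UCHL1, in the dense middle of the distribution, were CHST15, KLHL42, ABRACL, NRBP1 and LINC00294, with distances from 0.0042 to 0.0062.

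REST and its partners were followed through a list of 19 genes for corepressors, chromatin enzymes and turnover factors. All 19 were expressed. Of these, 4 were higher and 10 lower in both hairpin libraries (34.6% and 40.2% of expressed genes), and the median log2 ratios were -0.13 and -0.06. Both counting intervals lay below 0 for 9 of the 19, REST itself included, and above 0 for 3, against 20.6% and 14.0% of expressed genes. The expressed genes were not matched to the 19 in counts, on which the width of these intervals depends. RCOR2, a REST corepressor of stem and progenitor cells, was the only one past 2-fold in both, where 1.38% of expressed genes were 2-fold lower. Its counts were 66, 33 and 17 (ratios -1.05, interval -1.75 to -0.48, and -1.92, interval -2.90 to -1.25). The most abundant members were the deubiquitinase USP7 (2928, 2955 and 2867 counts, ratios -0.09 and -0.11), the histone demethylase KDM1A (1884, 2325 and 2132 counts, 0.20 and 0.10) and the deacetylase HDAC2 (1760, 1875 and 1939 counts, -0.0085 and 0.06).

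Genes that carry RE1 elements or are widely described as REST targets lay on both sides of the control. Of 30 written as a list, 21 were expressed, 8 were higher and 8 lower in both hairpin libraries (34.6% and 40.2% of expressed genes), and the median log2 ratios were 0.07 and -0.14. Both counting intervals lay above 0 for 4 of the 21 and below 0 for 5, against 14.0% and 20.6% of expressed genes. At 2-fold in both libraries, 2 of the 21 were higher and 1 lower, against 1.19% and 1.38% of expressed genes. The neuropeptide precursor gene VGF was 2-fold higher in both, with 40, 124 and 114 counts (ratios 1.49, interval 1.01 to 2.08, and 1.39, interval 0.90 to 1.99). The sodium channel gene SCN2A was also past 2-fold (7, 33 and 24 counts, ratios 1.88 and 1.46), but it reached a mean of 1 CPM only through the libraries in which it was high. The same holds for CHGA, one of the 8 higher in both. SCN2A overlaps SCN3A on the opposite strand by 9075 bases, and SCN3A had 5, 18 and 19 counts. CPLX2, a complexin of the synaptic vesicle machinery, went the other way and was among the more abundant of these genes. Its counts were 4919, 1605 and 1482 (ratios -1.71, interval -1.80 to -1.63, and -1.81, interval -1.90 to -1.73). UNC13A, a priming factor of synaptic vesicles, was 2-fold lower in DDX24-sh2 alone (494, 394 and 240 counts, ratios -0.42 and -1.12), as were 3.07% of expressed genes. TUBB3, which is also on this list, was 2-fold higher in DDX24-sh2 alone (2.89% of expressed genes). The list summed to 949, 720 and 654 CPM, of which CPLX2 alone was 288, 87.7 and 82.1.

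The 30 neuronal markers lay on both sides of the control. Of the 16 expressed, 7 were higher and 5 lower in both hairpin libraries (34.6% and 40.2% of expressed genes), with median log2 ratios of 0.16 and -0.25. NEFL was the only one past 2-fold in both (1.19% of expressed genes were 2-fold higher). Of the 16, 6 had both counting intervals above 0 and 3 had both below 0, against 14.0% and 20.6% of expressed genes. MAP2, the dendritic microtubule-associated protein gene, had 59, 116 and 131 counts (ratios 0.85, interval 0.41 to 1.35, and 1.05, interval 0.62 to 1.54). MAPT, which encodes tau, had 97, 77 and 45 counts (ratios -0.42 and -1.15). RBFOX3, the splicing regulator known as NeuN, had 236, 130 and 58 counts (ratios -0.95, interval -1.28 to -0.65, and -2.07, interval -2.55 to -1.69). The vesicular glutamate transporter gene SLC17A7 had 36, 64 and 17 counts (ratios 0.70 and -1.08). Each of these 4 genes passed 2-fold in DDX24-sh2 alone, as did TUBB3. With NEFL, 3 of the 16 were thus 2-fold higher in DDX24-sh2 and 3 lower, against 2.89% and 3.07% of expressed genes. After UCHL1, the most abundant markers were the adhesion genes CNTN1 (6218, 7169 and 6722 counts, ratios 0.11 and 0.03) and NRCAM (5165, 5437 and 4786 counts, ratios -0.03 and -0.19). The summed level of the list was 1507, 1668 and 1544 CPM, of which UCHL1 alone was 461, 545 and 522.

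Neuroendocrine markers are typical of small cell lung cancer rather than adenocarcinoma. Of 20 markers, 9 had 0 counts in every library, among them INSM1, NEUROD1 and CALCA, and 7 were expressed. Of these 7, 4 were higher in both hairpin libraries and 1 lower (34.6% and 40.2% of expressed genes), and the median log2 ratios were 0.17 and 0.18. One of the 4, the granin gene CHGA, was at 0.937, 1.97 and 1.44 CPM, and so reached a mean of 1 CPM only through the hairpin libraries. Its DDX24-sh1 value lies at the 2-fold threshold (past it by these CPM, and a log2 ratio of 0.99 with the prior count). Of the 7 genes, 2 had both counting intervals above 0 and none had both below 0, against 14.0% and 20.6% of expressed genes. After UCHL1 the most abundant were ENO2, neuron-specific enolase (740, 892 and 966 counts, ratios 0.17 and 0.30), and the Notch ligand DLL3 (320, 306 and 240 counts, ratios -0.16 and -0.49). ENO2 overlaps LRRC23 on its own strand. Of the proneural transcription factors, the 4 expressed were lower than the control in both hairpin libraries, as were 40.2% of expressed genes, and 1 of the 4 had both counting intervals below 0. SOX4 had 1447, 1308 and 958 counts (ratios -0.25 and -0.67), and was that gene. The intervals of POU4F1 (ratios -0.50 and -0.42) and SOX2 (ratios -0.61 and -0.34) included 0. Those of MYT1 did too (1.29, 0.929 and 1.05 CPM, ratios -0.43 and -0.27). MYT1 lay close to the limit of 1 CPM and reached it on average through the control, where it was highest. Its direction among the 4 therefore follows in part from that limit.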

How the data were processed

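RNA was sequenced from A549 cells in 3 libraries, 1 per condition, from 4 μg of total RNA each, and conditions were assigned from the sample labels. Gene counts, which are whole and not normalized, and FPKM values were deposited by the authors for every library. The submitters' processing notes name Bowtie2 2.0.6, TopHat2 2.0.9, Cufflinks 2.1.1 and Cuffdiff 2.1.1. The counter, strand setting and genome build are not given in the sources used here. Identifier, start and end of all 58735 genes match GENCODE 29 (GRCh38). FPKM times gene length over count was within 1% of a constant in 100% of 11641 genes for the control, and for the hairpin libraries only with their labels exchanged (5.33% and 5.32% as labelled).

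Counts were scaled with edgeR 4.0.16 (TMM, prior count of 2) in R 4.3.3. With 1 library per condition no test was run and no p-value is given. Intervals are exact 95% conditional binomial (Clopper-Pearson) intervals for ratios and Poisson intervals for levels. Changes were called at 2-fold among expressed genes, those averaging 1 CPM or more. TPM was computed from the counts and the gene lengths in the files. Overlaps came from the annotation, copies from BLAST 2.17.0, and figures from matplotlib 3.10.9. Only the 2-fold call and the coverage of the ratio interval were tested on simulated data. These were Poisson counts without variation between lines, and the genes changed in them were not low in counts.

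The 10 genes and the 13 gene lists were chosen with earlier results of these data known. Genes named are the 10, DDX24, the genes overlapping them with at least 1 count, the 5 nearest in ratio to NEFL, CEND1 and UCHL1, and in each list those past 2-fold in 1 or both hairpin libraries and the 3 most abundant. Others are named from their values, and a few genes of the lists are not reported here. Alternatives were DESeq2 1.42.0 size factors, total counts, FPKM as log2(FPKM + 0.1) with either labelling, a prior count of 0.5, other limits on CPM and fold, all list members, and counts summed with overlapping genes.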

Additional observations from a re-analysis of the deposited data

How the results depend on the processing

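The ratios of the 9 genes with counts stayed within their counting intervals, the numbers of the 10 genes past 2-fold within 1.5 times, and the medians of 8 lists within an order-statistic interval over each list's genes, under DESeq2 size factors, total counts, a prior count of 0.5 and the deposited FPKM with the hairpin labels exchanged. Medians over all list members did too. So did ratios from counts summed with overlapping genes, which were run only for genes with an overlap, so not for INA or CEND1. The numbers past 2-fold were not counted with those sums, under which the log2 ratios of TUBB3 were 1.11 and 1.28. With a prior count of 0.5, TUBB3 joined NEFL and CEND1, so that 3 of the 10 genes were 2-fold higher in both. The median of expressed genes lay between -0.03 and 0.0029 under every scaling. With the FPKM labels as given, values of the 2 hairpin libraries changed places, which follows from the exchanged labels. The log2 ratios of NEFL were then 2.29 and 2.04, and those of INA reversed, to -0.30 and 0.16. CEND1 was 1.99 in DDX24-sh1, UCHL1 0.19 and 0.25, and REST -0.21 in DDX24-sh2. With a mean of 10 CPM or more, 1 gene (NEFL) was 2-fold higher in both, because CEND1 has a mean of 5.86 CPM and is left out. Leaving out a replicate was not run, since each condition has 1 library. No paired analysis was possible because each condition has 1 library. Depth limits NEFM, NEFH, PRPH and STMN2 most.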

Other observations

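Markers of cell types other than epithelium and neurons were also counted. Of 12 glial markers, MOG, OLIG1, OLIG2, PMP2 and S100B were among those with 0 counts in every library, and the list summed to 111, 62.9 and 54.8 CPM (Control-sh, DDX24-sh1 and DDX24-sh2, as for all values here). Nearly all of it was MBP, the myelin basic protein gene, with 1841, 1070 and 926 counts (log2 ratios -0.88, interval -0.99 to -0.77, and -1.07, interval -1.19 to -0.96). GFAP, an astrocyte filament, had 55, 66 and 49 counts. Of 8 leukocyte markers, CD3E, MS4A1 and PTPRC were among those with 0 counts, and CD14 had 139, 108 and 75. Of 10 fibroblast and endothelial markers, 3 were expressed: COL1A1 (139, 174 and 143 counts), the proteoglycan gene LUM (27, 80 and 68 counts, ratios 1.40 and 1.20) and PDGFRA (10, 25 and 22 counts, ratios 1.08 and 0.93), which was at 0.586 CPM in the control and reached a mean of 1 CPM only through the hairpin libraries. Of the 9 expressed epithelial markers, 3 were higher and 4 lower in both hairpin libraries (34.6% and 40.2% of expressed genes). Both counting intervals lay above 0 for 3 and below 0 for 3 (14.0% and 20.6%). CLDN4 (59, 155 and 153 counts, ratios 1.27 and 1.27) and KRT19 (1001, 2251 and 2728 counts, 1.07 and 1.36) were 2-fold higher in both. ELF3 (2346, 1845 and 1673 counts, -0.45 and -0.57) and KRT18 (-0.09 and -0.22) were among the lower. CDH1, which encodes E-cadherin, was 2-fold lower in DDX24-sh2 alone (538, 358 and 261 counts, -0.68 and -1.12). Over all expressed genes, 1.19% were 2-fold higher in both libraries, like CLDN4, KRT19 and LUM, and 3.07% were 2-fold lower in DDX24-sh2, like CDH1 and MBP.

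Genes within 250 kb of the 10 genes, chosen after their values were seen, mostly stayed within 2-fold of the control. Near NEFL, DOCK5 was the only other expressed gene, and it was lower in both hairpin libraries (4868, 3355 and 3292 counts, log2 ratios -0.64 and -0.64). Near CEND1, 1 of 25 such genes was 2-fold higher in both, as were 1.19% of expressed genes: MIR210HG, the host gene of a hypoxia-regulated microRNA, with 7, 22 and 32 counts (ratios 1.33 and 1.85). At 0.410 CPM in the control, it reached a mean of 1 CPM only through the libraries in which it was high. Near PRPH, 1 of 11 was 2-fold higher in both, TUBA1A, an alpha tubulin gene abundant in the developing brain, with 1489, 4248 and 4150 counts (ratios 1.41 and 1.40). In DDX24-sh2 alone, C1QL4 near PRPH was 2-fold lower (ratios 0.33 and -1.18). So were NT5C2 (-0.61 and -1.02) and CNNM2 (-0.25 and -1.29) near INA, against 3.07% of expressed genes.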
